A study of Mus musculus with 6 samples.

Results

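The arrays measured 10 genes that set up and carry out the T helper 1 (Th1) program in splenic T cells from DUSP4-/- and WT mice. They were chosen by name and sorted by role into 5 receptor genes (Il12rb1, Il12rb2, Il18r1, Il18rap and Ifngr1), 4 transcription factor genes (Tbx21, Eomes, Hlx and Stat4) and 1 effector gene (Ifng). All 10 of them had 1 probe set that names the gene alone, out of 22180 genes measured. By their mean over the 6 arrays all 10 were brighter than the median probe set. Hlx and Il12rb2 were the dimmest, at percentiles 56.1 and 61.6 of the probe sets tested. The samples were 3 from DUSP4-/- mice, which lack the dual-specificity phosphatase DUSP4, and 3 from WT mice, all aged 6 to 8 weeks and on the C57Bl/6 background; no tissue-specific driver is named for the deletion. T cells were taken from spleen by magnetic-assisted cell sorting (MACS), with no culture and no treatment before RNA extraction. The sort that the methods describe keeps CD4 T cells at 90 to 95% purity by removing B220+, CD11b+, CD49b+, Ter119+ and CD8+ cells, and the legend for these arrays refers to it, whereas the labels say only T cells. Each sample was read on 1 Affymetrix array, and values are log2 levels from RMA.

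Th1 cells are the helper T cells that defend against intracellular microbes by secreting interferon gamma (IFN-gamma). IL-12 and IL-18, made by dendritic cells and macrophages, act together on them. IL-12 binds a receptor of the chains IL-12Rβ1 and IL-12Rβ2 and activates STAT4, while IL-18 binds IL-18Rα and, with the accessory chain encoded by Il18rap, signals through MyD88. STAT4 and the T-box factor T-bet, the product of Tbx21, drive Ifng, and T-bet in turn maintains Il12rb2. Resting naive T cells carry little IL-12Rβ2 and IL-18 receptor, and memory T cells and NK cells carry more.

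The groups were checked before the Th1 genes were read. Dusp4 read 5.10, 6.18 and 6.78 in DUSP4-/- arrays 1 to 3, against 6.33, 7.61 and 8.13 in WT arrays 1 to 3. Each DUSP4-/- array was thus below its WT partner by 1 log2 unit or more, although the groups overlapped, and where the probes lie relative to the deleted part is not known. Samples with the same number varied alike, so the 3 same-numbered pairs were also compared. Array 1 of both genotypes stood apart from the others in Xist, the RNA of the inactive X chromosome, at 10.12 in DUSP4-/- and 10.09 in WT cells, against 3.58 to 3.87 in the other 4 arrays; the labels do not give the sex of the mice. Cd3e read 11.49 to 11.78 and Cd4 10.82 to 11.10 in the 6 arrays. The CD8 chains Cd8a, at 10.32 to 10.79, and Cd8b1, at 10.62 to 11.04, were likewise far above the median probe set at 5.07. The T cell label was met, but these readings go against a sort that removed CD8+ cells, so the cells are called splenic T cells here. No gene of the 22180 (0%) passed an adjusted p of 0.05 in limma, without a block or with a block for the pairs, and none of the 10 Th1 genes did. At an unadjusted p under 0.05 limma counted 397 genes higher and 202 lower without the block. The values below are therefore differences that do not pass correction for all genes.

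The genes that stood lower in DUSP4-/- cells in every pair were Il12rb2, Il18r1, Il18rap and Ifng, namely receptor chains for IL-12 and IL-18 and the effector cytokine. These were 4 of 10 genes, where 11.1% of all genes were lower in every pair. None of the 10 was higher in every pair, where 16.6% of all genes were. The groups did not overlap for 0 of the 10, where 7.44% of all genes had no overlap. The median log2 difference of the 10 genes was -0.11, with pair medians of -0.11, -0.15 and -0.12, beside 0.02 over all genes. The genes were chosen with earlier results of these arrays known, so these shares describe the list and are no test of it.

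The sequences just before the starts of these 4 genes are shown because the genes differed the same way in every pair. They come from RefSeq (GRCm38.p6, where windows matched 9 of the 10 genes), are taken from the 250 bases before the most upstream start listed, and are written 5′ to 3′ on the strand of the gene without bases in the span of any annotated gene. Capitals mark the letters TTCNNNGAA, the GAS element to which STAT dimers bind. The stretches are chr6:67376294-67376438 on the minus strand for Il12rb2, and on the plus strand chr1:40465419-40465551 for Il18r1, chr1:40515112-40515361 for Il18rap and chr10:118440796-118441045 for Ifng.
Il12rb2: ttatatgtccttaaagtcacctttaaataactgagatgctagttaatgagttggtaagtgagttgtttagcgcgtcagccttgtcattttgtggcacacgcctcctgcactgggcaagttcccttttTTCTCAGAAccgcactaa
Il18r1: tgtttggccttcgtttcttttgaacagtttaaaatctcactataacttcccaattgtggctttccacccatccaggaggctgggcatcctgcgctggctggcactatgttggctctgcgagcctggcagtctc
Il18rap: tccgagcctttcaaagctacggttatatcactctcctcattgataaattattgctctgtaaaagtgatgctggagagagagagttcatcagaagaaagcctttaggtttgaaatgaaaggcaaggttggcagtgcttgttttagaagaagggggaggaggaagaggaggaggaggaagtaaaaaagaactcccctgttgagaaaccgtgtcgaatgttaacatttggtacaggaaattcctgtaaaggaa
Ifng: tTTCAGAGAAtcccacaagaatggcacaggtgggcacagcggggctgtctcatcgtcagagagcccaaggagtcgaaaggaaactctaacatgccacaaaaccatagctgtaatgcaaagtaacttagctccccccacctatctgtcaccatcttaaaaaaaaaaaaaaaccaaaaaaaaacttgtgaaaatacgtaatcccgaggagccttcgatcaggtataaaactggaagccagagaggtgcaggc

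Within the 250 bases before the start, searched on both strands, TTCNNNGAA was found 123 bases before the start of Il12rb2 and 249 bases before that of Ifng. It was in 2 of the 9 windows, against 7.14% of 27025 windows of the same length. The motif letters were chosen with the promoters in view, so these shares are no test. The T-box core GTGTGA was in the Il12rb2 window alone, 80 bases before the start, in a stretch inside the annotated span of Il12rb2 that is not printed; 12.2% of all windows hold it. The AP-1 letters TGANTCA, in 6.85% of all windows, and the Runx letters TGTGGT, in 14.2%, were in none of the 9. The Il12rb2 matches do not overlap each other. A match describes the letters only, and nothing about the factors follows from it.

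**Figure D1:**
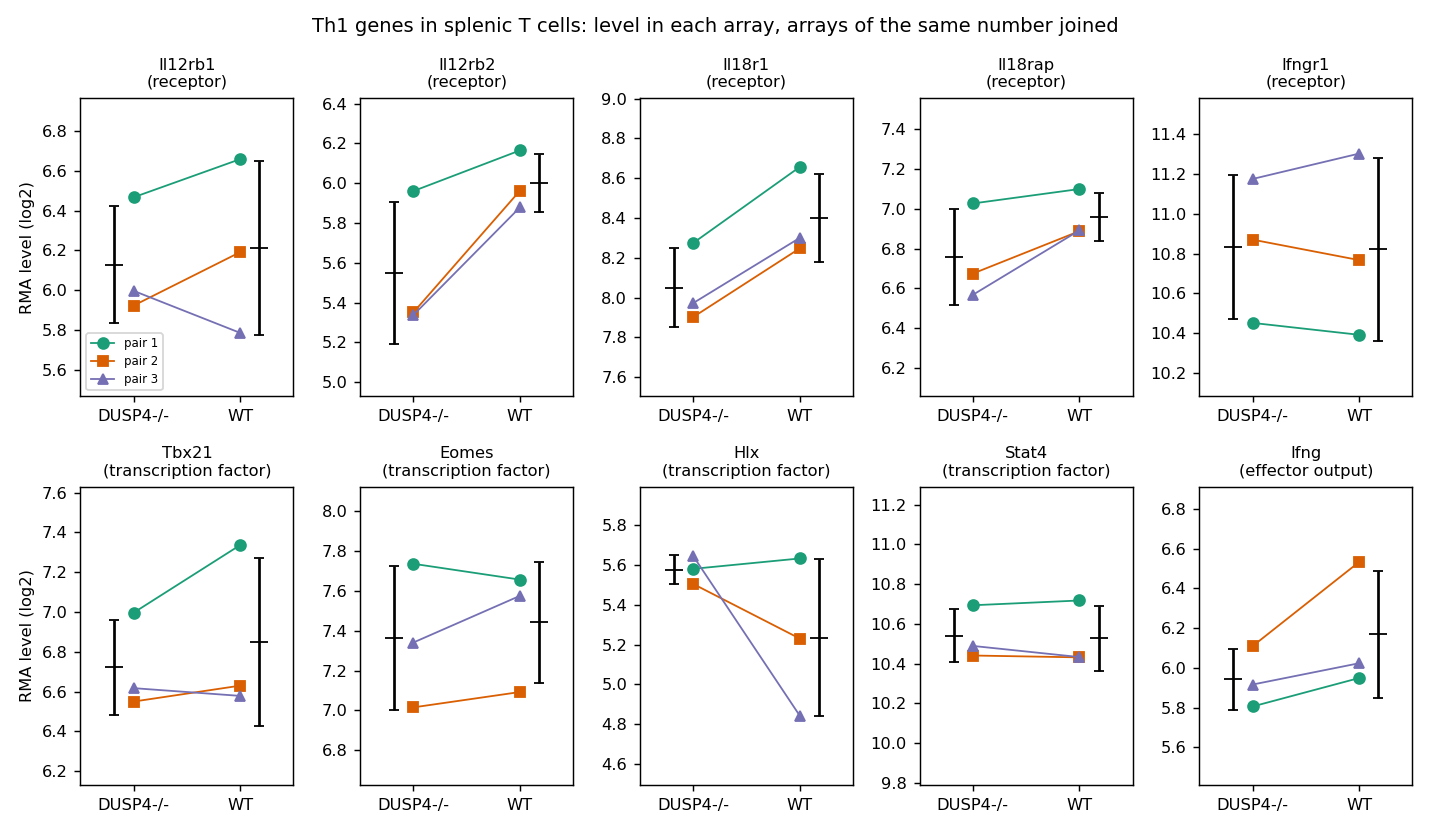
Level of each of the 10 Th1 genes (y axis, RMA log2, a range of 1.5 units in each panel) in the 3 DUSP4-/- arrays (left) and the 3 WT arrays (right); lines join arrays of the same number, and black bars give the mean and SD of each genotype (n = 3). For Il18r1 the 3 lines run nearly parallel, with DUSP4-/- below WT by 0.33 to 0.38, whereas for Il12rb1, Tbx21, Eomes, Hlx, Stat4 and Ifngr1 they do not all slope the same way.

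Among the receptors, Il12rb2, which encodes the signaling chain of the IL-12 receptor, had the largest difference of the 10 genes. It read 5.96, 5.35 and 5.34 in DUSP4-/- arrays 1 to 3, against 6.16, 5.96 and 5.88 in WT arrays 1 to 3. DUSP4-/- arrays 2 and 3 lay below every WT array, and DUSP4-/- array 1 lay among the WT arrays, level with WT array 2. The mean was 5.55 ± 0.36 (SD, n = 3) in DUSP4-/- and 6.00 ± 0.15 (SD, n = 3) in WT cells, or 0.731 times the WT level, and limma's 95% interval ran over 0.538 to 0.991 (adjusted p = 1.00 over all genes, and 0.762 with the replicate block). The log2 differences in pairs 1 to 3 were -0.20, -0.61 and -0.54, so the pair with high Xist showed the smallest one. The exact two-sided permutation test over the 6 samples gave p = 0.2, where 3 samples against 3 cannot go below 0.1.

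Il18r1, which encodes the IL-18-binding chain, read 8.27, 7.90 and 7.97 in DUSP4-/- arrays 1 to 3, against 8.66, 8.25 and 8.30 in WT arrays 1 to 3. Only DUSP4-/- array 1, by 0.03 above the lowest WT array, kept the groups from separating. The level was 0.784 times that in WT cells. Its 95% interval from limma spanned 0.603 to 1.02 without a block (adjusted p = 1.00) and 0.670 to 0.916 with the replicate block (adjusted p = 0.762). The differences within pairs 1 to 3 were -0.38, -0.35 and -0.33. Their SD of 0.028 was well under the SD of 0.21 between samples of 1 genotype, and was below that of all but 2.32% of genes. By the ratio of the mean difference to that SD, 46 of the 22180 genes ranked above Il18r1, which is a description of the same contrast and not a test. The exact two-sided permutation test, which ignores the pairs, gave p = 0.2.

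Il18rap lies next to Il18r1 on chromosome 1 and encodes the chain that turns binding of IL-18 into a signal. It read 7.03, 6.67 and 6.57 in DUSP4-/- arrays 1 to 3, against 7.10, 6.89 and 6.89 in WT arrays 1 to 3. DUSP4-/- array 1 was above 2 of the WT arrays. The level was 0.868 times that in WT cells (95% interval 0.678 to 1.11, adjusted p = 1.00 from limma). The log2 differences in pairs 1 to 3 were -0.07, -0.21 and -0.32, although quantile normalization of the table a second time turned pair 1 to 0.02 and left 3 genes lower in every pair. Il18r1 and Il18rap thus had the same sign in each pair but not the same order of pairs. With the replicate block, 2 of the 10 genes, Il12rb2 and Il18r1, had an unadjusted p under 0.05 in limma, where 6.19% of all genes did.

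The other receptor genes were not lower in every pair. Il12rb1 encodes the chain that the receptors for IL-12 and IL-23 have in common, and it lies on chromosome 8, as Dusp4 does. It read 6.47, 5.92 and 6.00 in DUSP4-/- arrays 1 to 3, against 6.66, 6.19 and 5.78 in WT arrays 1 to 3, with the groups interleaved. Its differences were -0.19, -0.27 and 0.21 in pairs 1 to 3, and the fold was 0.944 (95% interval 0.643 to 1.39). Ifngr1, the ligand-binding chain of the IFN-gamma receptor, was among the bright probe sets of the arrays and read 10.45, 10.87 and 11.18 in DUSP4-/- arrays 1 to 3, against 10.39, 10.77 and 11.30 in WT arrays 1 to 3. Here the pair numbers set the order and the genotype did not: the fold was 1.01 (95% interval 0.665 to 1.53 without a block and 0.849 to 1.20 with it), and its sign turned after subtraction of array medians. Whether these differences differ from that of Il12rb2 was not tested.

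**Figure D2:**
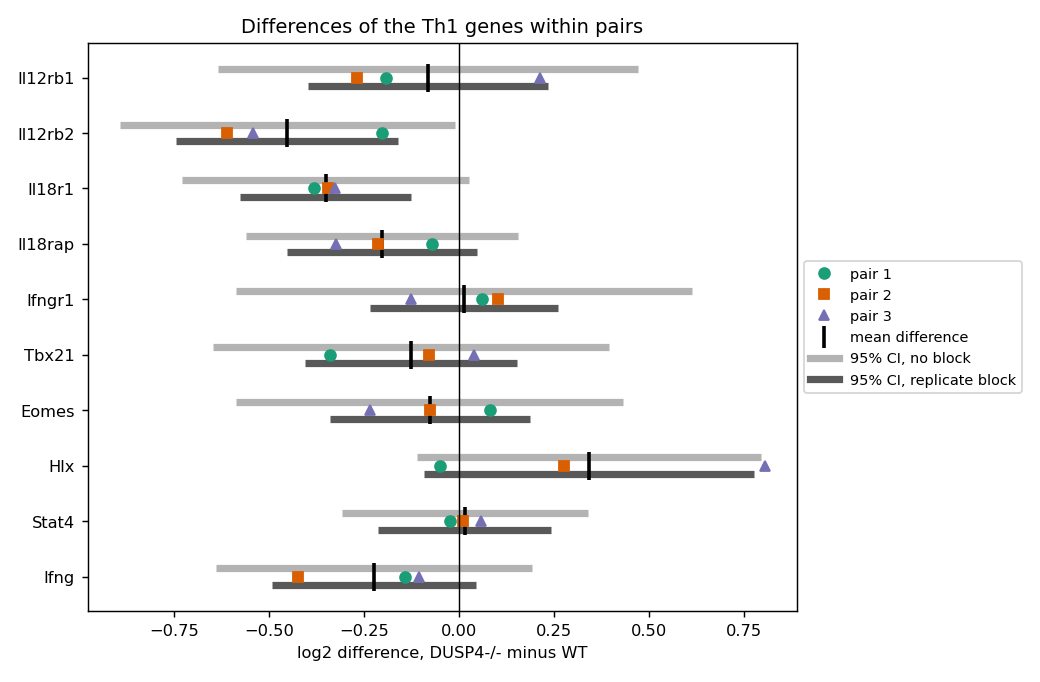
Log2 difference, DUSP4-/- minus WT (x axis), of the 10 Th1 genes in each of the 3 pairs (coloured symbols) with the mean (black tick) and limma's 95% interval without a block (light bar) and blocked on the pairs (dark bar). Il12rb2, Il18r1, Il18rap and Ifng have all 3 symbols below 0, and with the block the intervals of Il12rb2 and Il18r1 end below 0.

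The transcription factors had no common direction. Tbx21, which encodes T-bet, the factor that commits T cells to Th1, read 7.00, 6.55 and 6.62 in DUSP4-/- arrays 1 to 3, against 7.34, 6.63 and 6.58 in WT arrays 1 to 3. Array 1 was the highest in each genotype, and the other 4 arrays lay between 6.55 and 6.63. The fold was 0.916 (95% interval 0.638 to 1.31), with differences of -0.34, -0.08 and 0.04 in pairs 1 to 3, and without WT replicate 1 the log2 difference was 0.12 in place of -0.13. Eomes, the related T-box factor of memory CD8 T cells and NK cells, read 7.74, 7.01 and 7.34 in DUSP4-/- arrays 1 to 3, against 7.66, 7.09 and 7.58 in WT arrays 1 to 3. Its fold was 0.948 (0.666 to 1.35) and its differences were 0.08, -0.08 and -0.23, in an order of pairs opposite to that of Tbx21.

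Stat4, which relays the IL-12 signal, was bright and nearly level. It read 10.69, 10.44 and 10.49 in DUSP4-/- arrays 1 to 3, against 10.72, 10.43 and 10.43 in WT arrays 1 to 3. The fold was 1.01, with a sign that turned after subtraction of array medians. The 95% interval of 0.807 to 1.26 was, on the log2 scale, the narrowest of the 10 genes without a block, and it was 0.863 to 1.18 with the replicate block. Hlx, a homeobox factor that acts with T-bet in mouse Th1 cells, was the one member with a positive difference of size. It read 5.58, 5.51 and 5.65 in DUSP4-/- arrays 1 to 3, against 5.63, 5.23 and 4.84 in WT arrays 1 to 3. The 3 DUSP4-/- arrays were close together and the WT arrays were spread, with WT array 1 level with the DUSP4-/- arrays. The fold was 1.27 (0.926 to 1.73), and the differences of -0.05, 0.27 and 0.80 in pairs 1 to 3 had an SD of 0.43, larger than their mean of 0.34. Without WT replicate 3 the log2 difference was 0.15.

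Ifng, the effector cytokine, read 5.81, 6.11 and 5.92 in DUSP4-/- arrays 1 to 3, against 5.95, 6.53 and 6.02 in WT arrays 1 to 3. WT array 2 stood above the rest, and the other 5 arrays spanned 5.81 to 6.11. The mean was 5.94 ± 0.15 (SD, n = 3) in DUSP4-/- and 6.17 ± 0.32 (SD, n = 3) in WT cells, a fold of 0.856 (0.641 to 1.14). Its pair differences were -0.14, -0.42 and -0.11, and without WT replicate 2 the log2 difference was -0.04 in place of -0.22. DUSP4-/- array 2 was likewise the highest of its genotype. With replicate 2 of both genotypes left out, the log2 difference with the replicate block was -0.13. The size of the lower mean of Ifng therefore depended on array 2, most of all on that of WT, and its sign did not.

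The number of the pair went with the level of most of these genes. In both genotypes array 1 was the highest of the 3 arrays for 7 of the 10 genes, Il12rb1, Il12rb2, Il18r1, Il18rap, Tbx21, Eomes and Stat4, where 21.9% of all genes had this order. It was the lowest in both genotypes for Ifngr1 and Ifng, where 20.7% of all genes were, and only Hlx had neither order. The order was noticed after the values were seen. The partner chain of Ifngr1, Ifngr2, read 8.12, 9.09 and 9.75 in DUSP4-/- arrays 1 to 3, against 8.15, 9.03 and 9.70 in WT arrays 1 to 3, and so followed the pair numbers to within 0.06 in each pair. Pair 1 is the pair with high Xist. The mean of 10 measured B cell markers was also highest in array 1 of each genotype. It was 6.66, 5.67 and 5.93 in DUSP4-/- arrays 1 to 3, against 6.57, 5.65 and 5.96 in WT arrays 1 to 3. The sex of the mice, the share of B cells, the day of preparation and other features of a pair cannot be told apart here.

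Over the 6 arrays the receptor chains that were lower in every pair varied together. Pearson's r was 0.96 between Il12rb2 and Il18rap, 0.93 between Il12rb2 and Il18r1 and 0.91 between Il18r1 and Il18rap. A second group joined Tbx21 with Stat4 (0.95) and with Il12rb1 (0.93). Ifngr1 was negative with 8 of the other 9 genes, down to -0.93 with Il12rb1, and was at 0.11 with Ifng. Ifng itself ranged from -0.72 with Eomes and -0.61 with Stat4 up to that 0.11. It was at 0.08 with Il12rb2, at -0.09 with Il18r1 and at -0.09 with Il18rap. Of the 45 correlations between the 10 genes, 27 were above 0 and 7 above 0.8. With only 6 arrays, which share the order of the pairs, these values are descriptions with no test. The genotype difference by which Il12rb2, Il18r1 and Il18rap were grouped also enters their correlations.

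**Figure D3:**
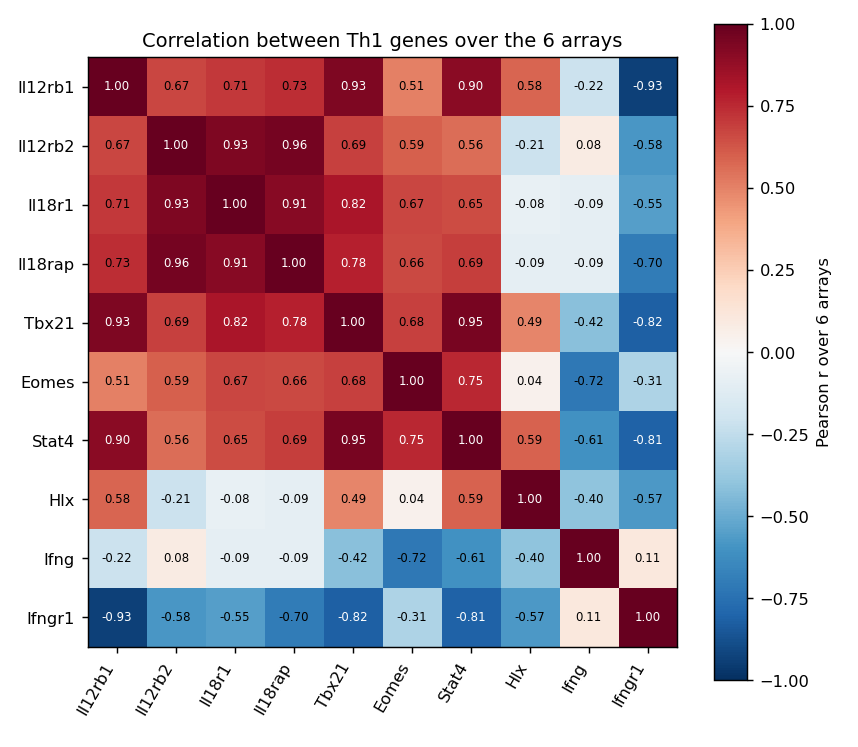
Pearson correlation between the 10 Th1 genes over the 6 arrays (both axes list the genes, colour and number give r). The receptor chains Il12rb2, Il18r1 and Il18rap, all lower in DUSP4-/- cells in every pair, are at 0.91 to 0.96 with each other. Ifngr1 is negative with 8 of the other genes, and Ifng runs from -0.72 with Eomes to 0.11 with Ifngr1.

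The genes most like each member over the 6 arrays were sought among 10569 genes brighter than the median probe set. Prf1, which encodes the pore-forming perforin of killer cells, was closest to Il18r1 at r = 0.99, and its own log2 difference was -0.39. It is also on the list of NK cell markers. Dhx58, an interferon-induced RNA sensor, came second to Il18r1 (0.98), followed by Bcdin3d (0.98). Il12rb2 was closest to Hmg20b (0.99), Il17rb, an IL-25 receptor chain (0.98), and Megf11 (0.98). For Il18rap they were Cdc14b, Dhdh and Lig4 (0.99 to 1.00). For Eomes they were Il2rb, the IL-2 and IL-15 receptor chain that Eomes maintains in memory CD8 T cells of the mouse (0.99), H2-Ab1 (0.99) and Sec24c (0.99). Tbx21 was closest to Fmo5, Abca2 and Bcs1l, Stat4 to Dntt, Ost4 and Hcfc1, and Il12rb1 to Ppp5c, Dgcr2 and Nudt13, at 0.996 to 1.00. Ifngr1 was closest to Ramp3, Hbp1 and Kremen1 (0.99 to 1.00), Hlx to Cdc25a, Spr and Etv5 (0.98 to 0.99), and Ifng to Pi4kb, Gnai1 and Ntn1 (0.96 to 0.98). With 6 arrays such values are common for some members. The genes that exceeded 0.95 numbered 327 with Stat4, 288 with Il12rb1, 274 with Tbx21 and 199 with Ifngr1. They numbered 43 with Eomes, 41 with Il18rap, 20 with Il18r1, 18 with Hlx, 16 with Il12rb2 and 10 with Ifng.

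None of the genes in the lists around this pathway passed an adjusted p of 0.05 in limma, with or without the block. Of 25 measured genes of IL-12, IL-18 and IFN-gamma signaling, 3 (12%) were lower and 4 (16%) higher in every pair, near the 11.1% and 16.6% of all genes, and the median log2 difference was -0.02. The kinases of the IL-12 receptor, Jak2 at 0.07 and Tyk2 at -0.09, and the IL-18 adaptor Myd88 at 0.13 were among them; in the last, all arrays lay between 8.05 and 8.63. Named after their values were seen, the 3 lower in every pair were Irak2, a kinase below MyD88 (-0.29), the cytokine Il18 (-0.35) and its decoy Il18bp (-0.16). Il18 was dim, at 3.75 to 4.57 over the 6 arrays, below the median probe set at 5.07. The 4 higher, likewise named after their values were seen, were Jak2, Traf6 (0.12), Map3k7 (0.03) and Map2k6 (0.09). Of 18 measured further transcription factors of helper T cells, 3 (16.7%) were lower and 3 (16.7%) higher in every pair, with a median of -0.02. Of 17 surface and secreted products of Th1 cells, 6 (35.3%) were lower in every pair and 1 (5.88%) higher, beside 11.1% and 16.6% of all genes, with a median of -0.10. The 6 were the chemokine receptors Cxcr3 (-0.05) and Cxcr6 (-0.26), the chemokines Ccl3 (-0.89) and Xcl1 (-0.40), the death ligand Fasl (-0.27) and the inhibitory receptor Havcr2 (-0.29), and they are named after their values were seen. The 1 gene higher in every pair was the granzyme Gzmk. It read 6.22, 5.69 and 5.68 in DUSP4-/- arrays 1 to 3, against 5.60, 5.31 and 5.20 in WT arrays 1 to 3. Every DUSP4-/- array was thus above every WT array (log2 difference 0.49, adjusted p = 1.00 from limma). Gzmk was the 1 gene of the 17 with no overlap, where 7.44% of all genes had none.

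Genes of the opposing Th2 program had a median log2 difference of 0.01. Of the 12, 0 were lower and 1 (8.33%) higher in every pair, beside 11.1% and 16.6% of all genes. Gata3, the Th2 master factor, read 8.31, 8.38 and 8.32 in DUSP4-/- arrays 1 to 3, against 8.37, 8.28 and 7.91 in WT arrays 1 to 3. Il4, Il5 and Il13 read 4.02 to 4.90 over the 6 arrays, below the median probe set at 5.07. Genes of naive T cells, which have not yet met antigen, had a median of 0.00, with none of 7 lower or higher in every pair. Lists this short can hold few or no such genes at the shares of all genes.

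**Figure D4:**
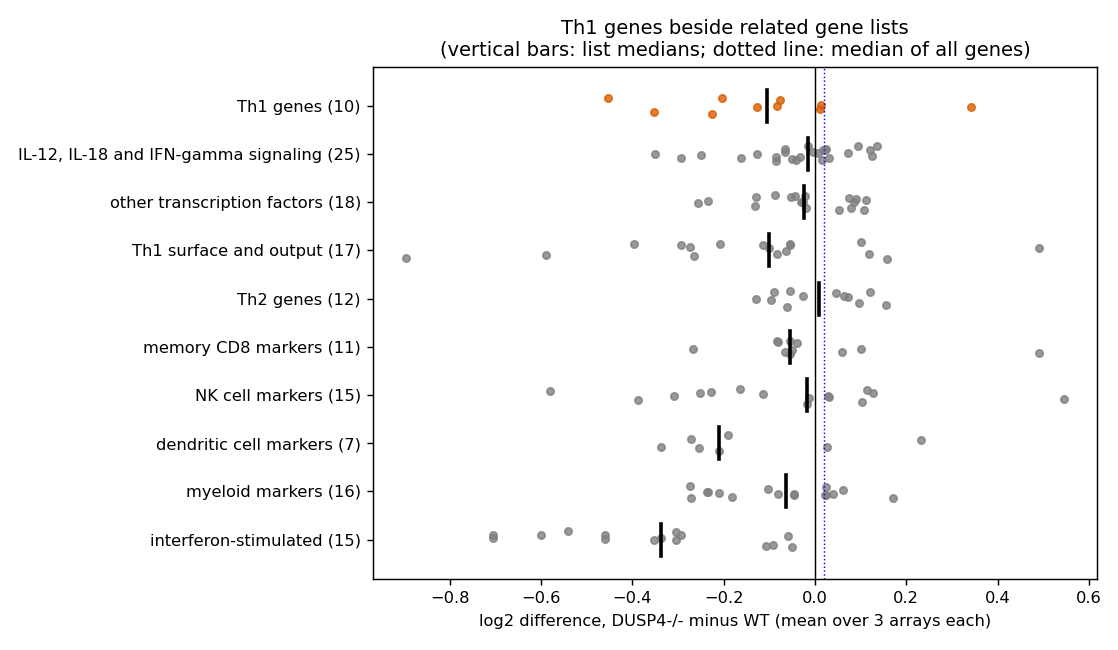
Log2 difference, DUSP4-/- minus WT (x axis), of the Th1 genes (orange) and of the genes in related lists (grey, number measured in brackets), with list medians as vertical bars and the median of all genes, 0.02, as a dotted line. The Th1 genes and the Th1 surface and output genes have medians of -0.11 and -0.10, the interferon-stimulated genes -0.34, and the Th2 genes 0.01.

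Markers of other cells that express these receptors were read beside them, and their counts stand against the 11.1% of all genes lower and 16.6% higher in every pair. In bulk RNA, fewer cells of a type and less RNA per cell cannot be told apart. Of 15 measured NK cell markers, 3 (20.0%) were lower and 1 (6.67%) higher in every pair, with a median of -0.02; the mean of the list was 5.98, 5.66 and 5.61 in DUSP4-/- arrays 1 to 3, against 5.99, 5.70 and 5.80 in WT arrays 1 to 3. The log2 differences of the list ran from -0.58 to 0.54. The NK receptor Ncr1 read 4.73 to 5.17, about the median probe set, and Klrb1c was below it in 5 of the 6 arrays and at 5.21 in DUSP4-/- array 1. Other genes of the list were bright, such as Nkg7 at 9.60 to 10.29, named after its values were seen. NK cells carry CD49b, which the sort described removes, but the CD8 readings above go against that sort. Whether NK cells were removed from these samples was not tested. Fcer1g, an adaptor chain that NK and myeloid cells share, read 7.24 to 7.36 in DUSP4-/- and 7.45 to 7.86 in WT cells, with no overlap. Of 11 memory CD8 markers, 2 (18.2%) were lower and 2 (18.2%) higher in every pair, with a median of -0.05. Among them Gzmm, another granzyme, read 5.26 to 5.39 in DUSP4-/- and 5.53 to 5.70 in WT cells, with no overlap, opposite in sign to Gzmk. Of 11 measured T cell markers, 3 (27.3%) were lower and 4 (36.4%) higher in every pair, with a median of -0.01. The adaptor Lat read 10.38 to 10.57 in DUSP4-/- and 10.61 to 10.67 in WT cells. It was the 1 gene of the 11 with no overlap, where 7.44% of all genes had none. Dendritic cell markers had 5 of 7 genes (71.4%) lower in every pair and a median of -0.21, with Siglech at 4.58 to 4.87 in DUSP4-/- and 4.99 to 5.13 in WT cells, and Batf3 the other way at 5.11 to 5.28 in DUSP4-/- and 4.87 to 5.06 in WT cells. Myeloid markers had a median of -0.06 and 2 of 16 (12.5%) lower in every pair. Interferon-stimulated genes differed in the same direction as the receptor genes Il12rb2, Il18r1 and Il18rap. Of these genes, 12 of 15 (80.0%) were lower in every pair, with a median of -0.34. Among them were Xaf1 at -0.71, Mx1 at -0.70 and Oas2 at -0.60. Mx1 was dim, at 4.14 to 4.64 in DUSP4-/- and 4.85 to 5.56 in WT cells, beside the median probe set at 5.07. What part any of these cells or genes had in the lower Il12rb2, Il18r1, Il18rap and Ifng readings was not tested.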

How the data were processed

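RNA of 3 DUSP4-/- and 3 WT samples of splenic T cells was hybridised singly to Mouse Gene 2.0 ST chips. The deposited log2 levels were made by the authors with RMA (Expression Console); its version and the annotation build are not given in the sources used here. RMA corrects background, quantile-normalizes arrays and summarizes probes, which can shrink differences common to many genes. Of 41345 probe sets, 23521 name exactly 1 gene in GEO's platform annotation and were tested, with symbols updated by Entrez identifier for 23328 of them. The brightest probe set by its mean over 6 arrays stood for each of 22180 genes. limma 3.58.1 (R 4.3.3; lmFit, eBayes) gave the difference DUSP4-/- minus WT and its 95% interval, with Benjamini-Hochberg adjusted p-values across every probe set tested. Simulated arrays with known changes were used to check the code.

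Deviations from the genotype means correlated over genes at 0.308 to 0.578 for samples of the same number and at -0.436 to 0.103 for others, and the study's legend names 3 independent pairs, so the numbers were taken as pairs. Whether a sample is 1 mouse is not stated in the labels, and p-values measure the spread between these samples. The number of arrays limits the precision. The Th1 genes and all gene lists were chosen with earlier results of these data known, and the motif letters with the promoters in view. Genes of a list were named where the genotypes did not overlap and all pairs had the same sign, up to 3 per direction and list, and others are said to be named after their values were seen, or are given as defining members of a pathway. The alternatives were a block for the pairs, leaving out arrays or pairs, other normalizations, a filter on dim probe sets, other limma settings, ANOVA and a threshold of 0.1. List genes with no probe set of their own were not analysed here. B cell, plasma cell and T cell lists were also read, with medians of 0.03, -0.24 and -0.01, and that of 4 markers of innate-like T cells was -0.08. Of 8 plasma cell markers, 4 (50.0%) were lower and 1 (12.5%) higher in every pair, beside 11.1% and 16.6% of all genes. Of 10 measured B cell markers, 0 were lower and 2 (20.0%) higher in every pair.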

Additional observations from a re-analysis of the deposited data

How the results depend on the processing

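None of the 10 Th1 genes passed an adjusted p of 0.05 from limma under any of 17 alternatives each, among which the lowest adjusted p was 0.665 (Il12rb2). The count of all genes past the threshold was 0 in all alternatives with all arrays, the replicate block, array weights and a gene-by-gene one-way ANOVA included, and 0 to 1 when single arrays or pairs were left out, with the 1 gene found without WT replicate 1. The count of Th1 genes lower in every pair was 4 after subtraction of array medians, 3 after quantile normalization again, where Il18rap in pair 1 was 0.02, and 4 to 6 in the remaining pairs when 1 pair was left out, an alternative added after seeing the data, where 20.7% to 24.5% of all genes were lower in both remaining pairs. The estimates of Il12rb2, Il18r1, Il18rap, Ifng and Hlx kept their sign throughout. Over fits without 1 array or 1 pair, the log2 difference ranged from -0.66 to -0.35 for Il12rb2, -0.46 to -0.22 for Il18r1, -0.34 to -0.11 for Il18rap, -0.33 to -0.04 for Ifng and 0.11 to 0.54 for Hlx. The sign turned for Il12rb1 (-0.30 to 0.14), Ifngr1 (-0.20 to 0.25), Tbx21 (-0.26 to 0.12), Eomes (-0.26 to 0.10) and Stat4 (-0.062 to 0.11). With the replicate block and 1 pair left out it turned for Ifngr1 (-0.012 without pair 1 and -0.034 without pair 2), Il12rb1 (0.0098 without pair 2), Eomes (0.0012 without pair 3) and Stat4 (-0.0073 without pair 3). After subtraction of array medians it was -0.0036 for Ifngr1 and -0.0015 for Stat4. With the replicate block the estimates stay the same by construction and the standard error of Il18r1 was 0.091 in place of 0.164, which changed no call. Averaging probe sets changed no level, since each Th1 gene has 1, and no Th1 gene was lost when dim probe sets were left out.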
